A study of Mus musculus with 23 samples.

Results

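Krüppel-like factors (KLFs) are transcription factors that bind GC-rich and CACCC sites in promoters through zinc fingers at the end of the protein. They differ in the part outside the zinc fingers, through which some recruit activators and others recruit co-repressors such as CtBP or Sin3a. In the lung, KLF2 and KLF4 are best known as factors that blood flow induces in endothelium, KLF5 as a factor of the airway and alveolar epithelium, and KLF9, KLF13 and KLF15 as factors that respond to steroid hormones or act in metabolism. The 10 genes described here are Klf2, Klf3, Klf4, Klf5, Klf6, Klf7, Klf9, Klf10, Klf13 and Klf15, found by gene symbol among 35322 genes and 17 Klf genes of the table. They were chosen by their levels in ovalbumin-challenged against unchallenged lungs, with Klf4 picked for the largest fall of all genes, so those differences are a description. Calls on them are given only as counts or as kept or lost, and support nothing. All 10 were among the 16795 genes tested.

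The lungs came from 13-week-old offspring of Balb/c dams that had received saline (Sham) or fine particulate matter (PM), and no offspring was itself given particulates. The OVA groups were sensitised to ovalbumin (OVA) and challenged with it by aerosol, and the others received the vehicle. There were 7 Sham, 7 PM, 5 Sham-OVA and 4 PM-OVA libraries, all labelled as female by the design text and sequenced from polyA RNA. The tissue is abbreviated as RML in the labels and given as right lower lobe in the study's methods, and it was collected after a methacholine test of lung function. All 8 alveolar type 2 and all 7 alveolar type 1 markers examined were among the genes tested. The labels do not name litters, so p-values measure the spread between these libraries only.

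Levels are given as RPM, reads scaled to the same total in every library. Reads on genes ranged from 13089691 to 17393579 in the unchallenged libraries and from 2298645 to 12355561 in the challenged ones, and Sham-OVA replicate 3, PM-OVA replicate 4 and PM-OVA replicate 3 were the shallowest. Transcripts over 6 kb were low in the challenged libraries, from a median log2 difference from Sham of -0.48 in PM-OVA replicate 1 to -1.80 in Sham-OVA replicate 3. Sham replicate 1 carried 54.0 RPM of the Y-linked gene Eif2s3y against its label. It had 0.289 RPM of the female-specific transcript Xist, against 528 to 1618 RPM in the rest of the Sham group, so its values are those of a male lung. Transcripts of allergic airways stood out in the unchallenged PM replicate 1 (Clca1, a goblet cell gene, 178 RPM) and in Sham replicate 6 (Jchain, a plasma cell gene, 145 RPM). Since these are bulk lungs, fewer cells of a type and less RNA per cell cannot be told apart.

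The promoters of 4 members are shown because Klf2 and Klf4 moved in opposite directions after OVA, and Klf9 and Klf15 varied together between unchallenged lungs. Each line holds the 250 bases before the RefSeq transcript start, in the build GRCm38.p6 and on the strand of the gene, with CACCC (or GGGTG, the same site on the other strand) and CACGTG in capitals. The regions are chr8:72318812-72319061 on the plus strand for Klf2, chr4:55532476-55532725 on the minus strand for Klf4, chr19:23140976-23141225 on the plus strand for Klf9 and chr6:90462326-90462575 on the plus strand for Klf15.
Klf2: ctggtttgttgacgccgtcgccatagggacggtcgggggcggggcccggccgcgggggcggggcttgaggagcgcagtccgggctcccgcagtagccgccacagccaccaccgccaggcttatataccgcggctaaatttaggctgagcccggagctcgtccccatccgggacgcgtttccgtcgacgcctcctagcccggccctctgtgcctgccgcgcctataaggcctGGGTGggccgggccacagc
Klf4: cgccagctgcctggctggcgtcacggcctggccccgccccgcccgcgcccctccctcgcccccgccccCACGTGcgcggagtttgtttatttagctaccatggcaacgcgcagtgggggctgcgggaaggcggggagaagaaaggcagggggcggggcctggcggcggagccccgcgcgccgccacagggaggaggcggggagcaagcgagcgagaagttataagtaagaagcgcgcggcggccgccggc
Klf9: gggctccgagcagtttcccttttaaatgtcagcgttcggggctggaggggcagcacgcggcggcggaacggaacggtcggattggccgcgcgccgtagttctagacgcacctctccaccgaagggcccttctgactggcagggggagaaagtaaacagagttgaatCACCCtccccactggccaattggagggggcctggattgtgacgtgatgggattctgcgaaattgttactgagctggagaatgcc
Klf15: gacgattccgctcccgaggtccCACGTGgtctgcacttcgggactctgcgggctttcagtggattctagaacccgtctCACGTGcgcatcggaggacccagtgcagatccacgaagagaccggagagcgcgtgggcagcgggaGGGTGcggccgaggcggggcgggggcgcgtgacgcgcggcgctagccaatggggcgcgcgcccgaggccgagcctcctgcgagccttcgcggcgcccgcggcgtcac

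Windows of 300 bases, from 250 before to 50 after the start, were at hand for 8 of the 10 members. CACCC, a site that KLF proteins bind, stood on either strand in 6 of these 8 windows and in 57.5% of 32851 windows of all genes. The Klf4 window held no CACCC. The GC-rich sites that KLF proteins also bind were not searched for in any window. CACGTG, an E-box bound by CLOCK and BMAL1 among other factors, stood in 3 of 8 windows (Klf4, Klf6 and Klf15) and in 7.15% of all windows. Klf15 held 3 copies, which begin at -228, -172 and -3 from the start, and the last of these crosses into the transcript and is not in capitals. Klf4 held 1 copy at -182. A match to the MEF2 motif lay at -118 in Klf2, read as 1 palindromic site, and in 3.19% of all windows. The letters TGACTCA and TGACGTCA, searched on both strands, stood in 0 of the 8 windows, and in 5.2% and 1.79% of all windows. These matches are letters in a window and were not tested for binding.

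The members lie on 10 different chromosomes. Their exons span 1.85 kb in Klf2 to 11.2 kb in Klf3, with a GC content from 42.4% in Klf6 to 61.6% in Klf2. The reads of Klf3, Klf7, Klf9 and Klf13 fall in loci that other annotated genes overlap, and those of them with a row in the table reached at most 8.03 RPM in any library. Per kb of exon in Sham, Klf2 was the highest at 135 ± 50.7 RPM per kb (SD, n = 7), followed by Klf9 (111 ± 16.3) and Klf6 (91.1 ± 12.8). Klf15 (49.3 ± 11.4), Klf13 (28.6 ± 8.15), Klf4 (23.9 ± 7.84), Klf3 (21.4 ± 3.47), Klf7 (20.3 ± 4.05) and Klf10 (13.4 ± 1.64) came next. From Klf2 down to Klf10, each gene overlapped the next in the order. Klf5 came last at 5.25 ± 0.722 RPM per kb, with all 7 libraries below those of Klf10. With the longest transcript in place of all exons, Klf3 moved up to 46.1 ± 7.48 RPM per kb, between Klf15 and Klf13. PM lungs had the same order, from Klf2 at 134 ± 53.7 to Klf5 at 5.32 ± 0.982 RPM per kb.

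After OVA the order of levels per kb was different at both ends. Klf2 led with 351 ± 148 RPM per kb in Sham-OVA (n = 5) and 485 ± 380 in PM-OVA (n = 4), and no library overlapped those of Klf6, the next in the order. Klf4 came last with 0.274 ± 0.158 RPM per kb in Sham-OVA and 3.10 ± 5.61 in PM-OVA. In Sham-OVA, 8 of 10 members were called lower than in Sham and 2 of 10 higher at an adjusted p under 0.05 (limma), where 47.5% of all genes tested were called lower and 20.6% higher. In PM-OVA against PM the counts were also 8 lower and 2 higher, where 45.2% of genes were called lower and 20.1% higher. The median log2 fold change of the members was -1.55 in Sham and -1.31 in PM offspring, and that of all genes was -0.48 and -0.43. Because the members were picked on these contrasts, nothing is read from the counts.

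**Figure D1:**
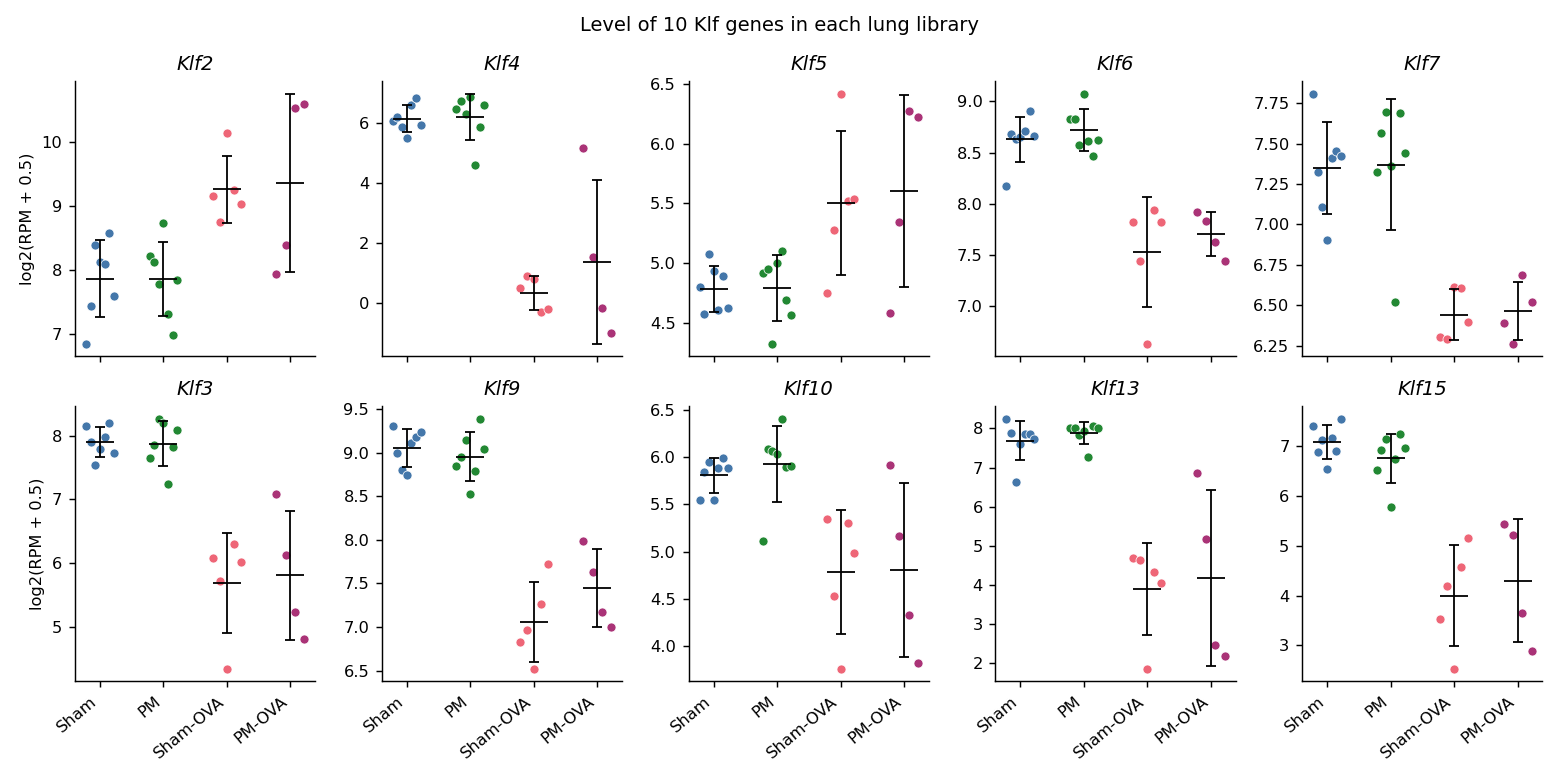
Level of each of the 10 Klf genes, as log2(RPM + 0.5) on the vertical axis, in every library of the Sham (n = 7), PM (n = 7), Sham-OVA (n = 5) and PM-OVA (n = 4) groups. Points are libraries and bars are the mean ± SD. Klf2 and Klf5 sit higher in the OVA groups and the other 8 lower, and PM-OVA replicate 1 sits near the unchallenged libraries for Klf4, Klf10 and Klf13.

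Klf4 encodes an activator and repressor of transcription that is found in differentiated epithelium and in endothelium under flow, and it lies on chromosome 4 from 55527143 to 55532466 on the minus strand. Its level in Sham ran from 44.6 to 114 RPM with a median of 65.9, and in PM from 23.5 to 117 with a median of 86.5. In Sham-OVA the 5 libraries had 0.903, 1.35, 1.24, 0.319 and 0.365 RPM, which rest on 4 to 18 reads. All 5 lay far below the lowest Sham library. The 4 PM-OVA libraries had 35.1, 2.40, 0.398 and 0 RPM, where no read in replicate 4 allows up to 0.545 RPM (3 reads, counting error only). PM-OVA replicate 1 exceeded the lowest PM library, replicate 5, and the other 3 lay below all PM libraries. The log2 fold change on the log2(RPM + 0.5) scale was -5.80 ± 0.27 (SE), 1.80% of the Sham level, in Sham offspring and -4.81 ± 0.90 in PM offspring. Without PM-OVA replicate 1 the second value was -6.06 ± 0.53, and without PM-OVA replicates 3 and 4 it was -2.85 ± 0.77. DESeq2 on the recovered reads, which weighs replicate 1 with its 522 reads, gave -2.97 ± 1.10.

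Among the 16795 genes, Klf4 had the lowest log2 fold change in Sham offspring, for which it was picked, and the fifth lowest, rank 5, in PM offspring. The study used a stricter threshold (adjusted p under 0.000001 and a log2 fold change beyond 1 in size) with DESeq2. It lists both Klf2 and Klf4 among the endothelial signature genes that differed after OVA in Sham offspring only. Applied here to limma, the same threshold called 2 members lower in Sham offspring, Klf4 and Klf9, where 2.53% of genes were called lower and 1.98% higher. In PM offspring 0 members were called by it with limma, where 0.0238% of genes were called lower and 0.262% higher. Nothing is read from these calls, and with replicates left out in turn the adjusted p of Klf9 in Sham offspring reached 6.44e-06 (limma), short of that threshold.

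Klf2 encodes the flow-induced activator of endothelium that also keeps T cells quiescent and lets them recirculate. It is the shortest and the most GC-rich of the 10 and lies on chromosome 8 from 72319033 to 72321656 on the plus strand. Its level ran from 115 to 379 RPM in Sham (median 272) and from 125 to 425 RPM in PM (median 229). The Sham-OVA libraries had 566, 429, 1122, 604 and 519 RPM and lay all above Sham. The PM-OVA libraries had 245, 333, 1471 and 1534 RPM, so that 2 of 4 lay inside the range of PM. Klf2 was up by 1.40 ± 0.29 on the log2 scale in Sham offspring and by 1.502 ± 0.50 in PM offspring. The 3 libraries with the most Klf2 were the 3 shallowest, which were also those with the lowest medians for transcripts over 6 kb. Without these 3 the log2 fold change was 1.18 ± 0.25 in Sham offspring and 0.31 ± 0.36 in PM offspring, where Klf2 was no longer called. With the dependence of the values on transcript length and GC content removed, Klf2 was at 1.12 ± 0.51 in PM offspring and lost its call. It kept its call in Sham offspring. With reads thinned to a common depth, Klf2 kept its call in each cohort. The part of depth and of transcript length in the rise was not tested beyond these fits.

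Klf5, an activator of proliferation and differentiation in epithelium, was the other member that was higher after OVA. It ranged from 23.4 to 33.3 RPM in Sham and from 19.6 to 33.9 RPM in PM. In Sham-OVA it ranged from 26.5 to 85.1 RPM, with 4 of 5 libraries above all of Sham, and in PM-OVA from 23.5 to 76.7 RPM, with 3 of 4 above all of PM. The highest libraries were again the shallow ones. The log2 fold changes were 0.71 ± 0.22 and 0.81 ± 0.29, and without the 3 shallow libraries 0.48 ± 0.15 in Sham and 0.17 ± 0.23 in PM offspring, where the call was lost. In PM offspring it was also lost with reads thinned to a common depth (0.74 ± 0.31) and with no filter on low values (0.81 ± 0.31). The call in Sham offspring was kept in both of these fits.

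Klf6 and Klf7 are the remaining activators of the set, broadly expressed factors with a role in wound repair and matrix genes (Klf6) and in the development of neurons (Klf7). Klf6 ran from 289 to 478 RPM in Sham and from 99.1 to 245 RPM in Sham-OVA, and from 354 to 539 RPM in PM and from 174 to 241 RPM in PM-OVA, and neither OVA group overlapped its control. On the log2 scale Klf6 differed by -1.10 ± 0.21 in Sham offspring and by -1.01 ± 0.15 in PM offspring. Klf7 ran from 119 to 224 RPM in Sham and from 77.8 to 97.6 RPM in Sham-OVA, and from 91.1 to 207 RPM in PM and from 76.3 to 102 RPM in PM-OVA. It did not overlap in Sham offspring, whereas in PM offspring 2 of 4 PM-OVA libraries lay within PM, above PM replicate 5 only. On the log2 scale Klf7 differed by -0.91 ± 0.15 in Sham offspring and by -0.91 ± 0.20 in PM offspring. Each library was also corrected for the dependence of the values on the length and GC content of the longest transcript. Klf7 then turned to 0.26 ± 0.21 and 0.26 ± 0.28 and Klf6 shrank to -0.25 ± 0.12 and -0.14 ± 0.15. None of these 4 values passed the threshold.

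Klf3, which binds the co-repressor CtBP and is known from B cells and fat tissue, has the most exon sequence of the 10, while Klf7 has the longest single transcript. Its range was 185 to 292 RPM in Sham (median 238) and 151 to 306 RPM in PM (median 230). Sham-OVA libraries had 67.2, 52.6, 19.9, 78.5 and 64.6 RPM, and PM-OVA libraries had 135, 69.6, 37.2 and 27.6 RPM. Neither OVA group overlapped its control. The log2 fold changes were -2.20 ± 0.27 in Sham and -2.06 ± 0.35 in PM offspring, and -1.27 ± 0.15 and -1.13 ± 0.22 with the length and GC trend removed.

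The 3 members that recruit Sin3a were all lower after OVA. Klf9, a target of glucocorticoid and thyroid hormone, was between 426 and 630 RPM in Sham (median 554) and between 366 and 669 in PM (median 495). The Sham-OVA libraries had 113, 124, 91.3, 154 and 211 RPM and the PM-OVA libraries 253, 198, 143 and 128 RPM. No challenged library reached its control group, and the log2 fold changes were -1.99 ± 0.19 and -1.51 ± 0.21. Klf13, which acts in T cells on the chemokine gene Ccl5, was between 98.9 and 303 RPM in Sham (median 232) and 153 and 265 in PM (median 256). Sham-OVA libraries had 25.0, 24.2, 3.11, 19.4 and 15.99 RPM and PM-OVA libraries had 117, 35.6, 5.05 and 3.99 RPM. All lay below their controls, with the lowest levels in the shallow libraries, and PM-OVA replicate 1 stood closest to PM. The log2 fold changes of Klf13 were -3.79 ± 0.42 in Sham and -3.70 ± 0.70 in PM offspring, the second largest fall of the members in each cohort. Klf10, which TGF-beta induces, was between 46.2 and 62.9 RPM in Sham and 34.0 and 84.1 in PM, against 13.0 to 40.1 in Sham-OVA and 13.6 to 59.6 in PM-OVA. It overlapped in PM offspring, where 2 of 4 libraries were inside PM, and its log2 fold changes were -1.02 ± 0.24 and -1.12 ± 0.34. Without the 3 shallow libraries the second value was -0.39 ± 0.28 and the call was lost, as it was with edgeR (-0.66).

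Klf15, a regulator of amino acid and lipid metabolism that glucocorticoids induce, ranged from 92.9 to 186 RPM in Sham (median 138) and from 54.6 to 150.4 RPM in PM (median 120.1). The Sham-OVA libraries had 11.1, 17.8, 5.28, 23.3 and 35.1 RPM, and the PM-OVA libraries had 42.8, 36.6, 12.1 and 6.90 RPM. All 9 lay below their controls. The log2 fold changes were -3.08 ± 0.35 and -2.46 ± 0.44, and they stayed at -3.03 ± 0.31 and -2.45 ± 0.38 with the length and GC trend removed. Klf4 and Klf13 were likewise lower with the trend removed, at -5.61 ± 0.30 and -3.05 ± 0.35 in Sham offspring. Klf3, Klf4, Klf9, Klf10, Klf13 and Klf15 kept their calls as lower on both scales. Klf6 was lower on both too but lost its call with the trend removed. Of the 6 that kept their calls, Klf10 had the smallest value with the trend removed, -0.52 ± 0.14 in Sham offspring. In that fit 63.3% of all genes were called in either direction in Sham offspring and 59.1% in PM offspring. Nothing is read from the kept calls.

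**Figure D2:**
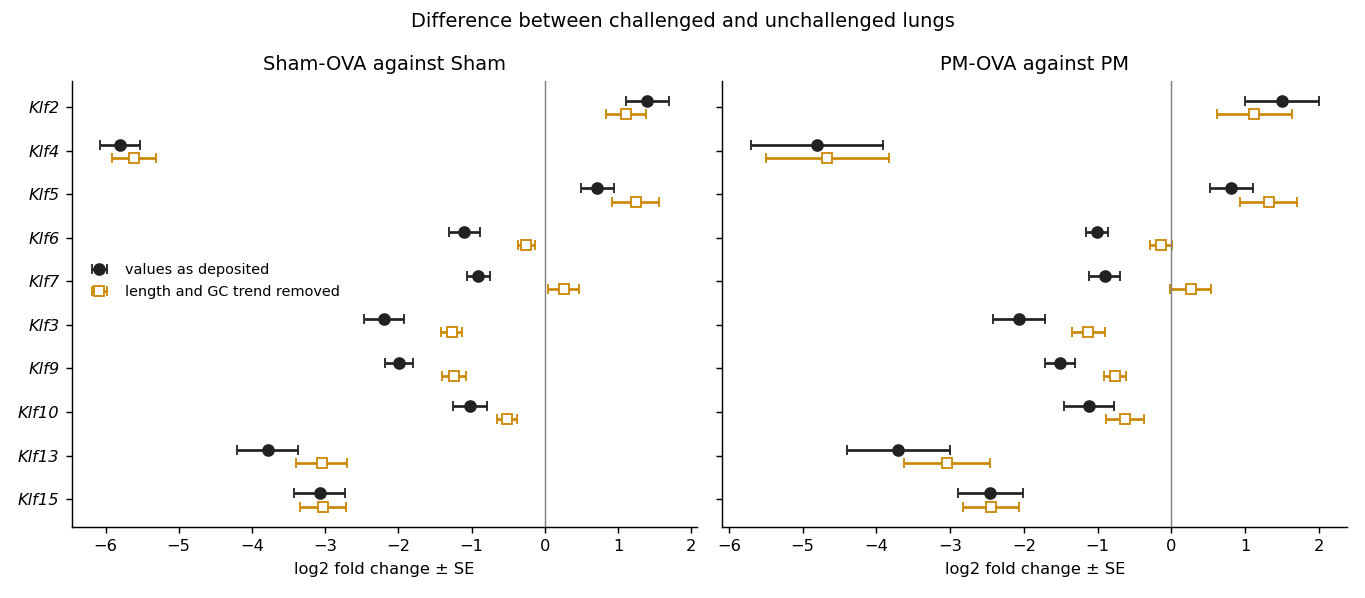
Log2 fold change ± SE of each member on the horizontal axis, for Sham-OVA against Sham on the left and PM-OVA against PM on the right. Filled circles use the values as deposited and open squares those corrected for the length and GC content of the longest transcript. Klf4, Klf13 and Klf15 are the lowest with either, and Klf7 crosses 0.

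The scale of the values matters because the median gene was lower after OVA. With median-of-ratios scaling the median of all genes was -0.17 in Sham and -0.13 in PM offspring in place of -0.48 and -0.43. Relative to the median of all genes, Klf7 was -0.43 in Sham offspring with the values as deposited and -0.37 with that scaling, Klf6 was -0.62 and -0.56, and Klf4 was -5.32 with both. The signs of all 10 members were the same under both scalings and under quantile normalisation in each cohort.

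**Figure D3:**
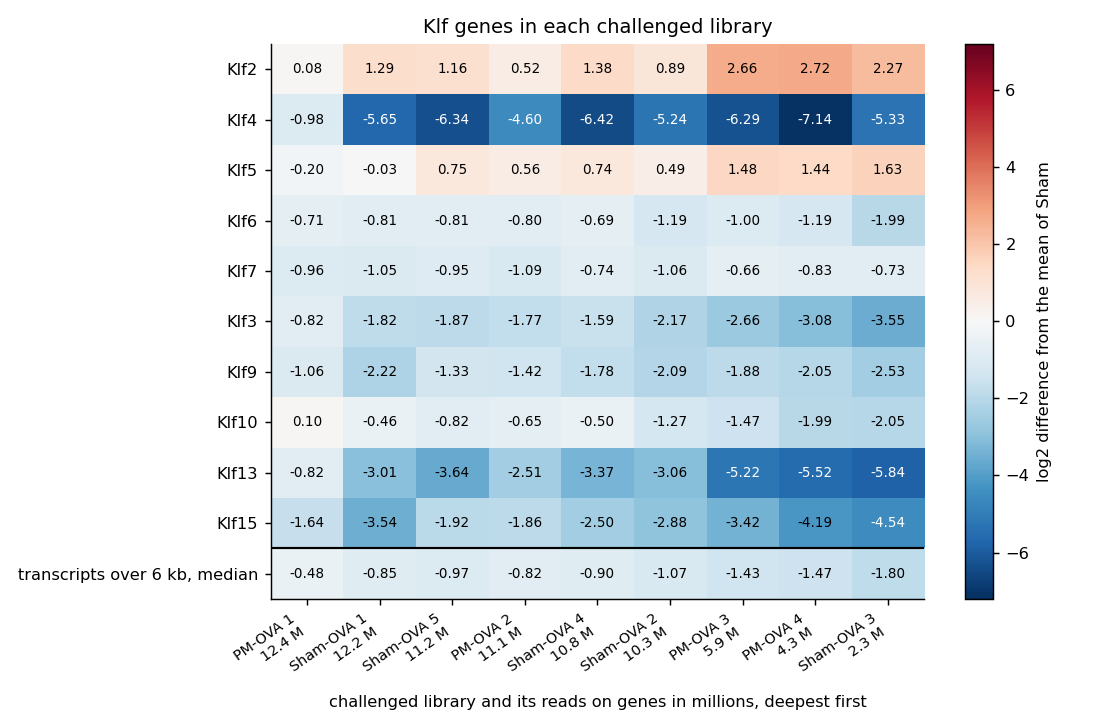
Log2 difference of each member from the mean of Sham in the 9 challenged libraries, ordered from the deepest to the shallowest with the reads on genes below each name. The last row is the median of transcripts over 6 kb. Klf2 and Klf5 are highest, and Klf13 lowest, in the 3 shallow libraries on the right, and PM-OVA replicate 1 on the left has the smallest differences for Klf3, Klf4, Klf9, Klf13 and Klf15.

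The effect of maternal exposure was not used to choose the members and was tested. In unchallenged lungs, 0 of 10 members differed between PM and Sham (limma, adjusted p of at least 0.898), where 0% of genes were called, and before adjustment 0 of 10 had p under 0.05. DESeq2 and edgeR also called 0 members. The 3 with the smallest p were Klf15, Klf13 and Klf10. Klf15 was 0.32 lower on the log2 scale in PM, at -0.32 with a 95% interval from -0.74 to 0.10 (adjusted p = 0.898, limma). Without PM replicate 4, which had the lowest level of Klf15 (54.6 RPM), it was -0.16. Klf13 was at 0.18 (-0.23 to 0.60) and Klf10 at 0.12 (-0.20 to 0.44), and the PM and Sham libraries of all 3 overlapped. The narrowest intervals were those of Klf6 (0.08, from -0.15 to 0.32) and Klf5 (0.01, from -0.25 to 0.26), and the widest that of Klf4 (0.05, from -0.58 to 0.69). Without PM replicate 5, the library with the least Klf4, the Klf4 difference was 0.32 ± 0.20 (limma, adjusted p = 0.741).

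In challenged lungs, 0 of 10 members differed between PM-OVA and Sham-OVA (limma, every adjusted p = 1), where 0% of genes were called, and before adjustment 0 of 10 had p under 0.05. The 3 with the smallest p were Klf9 at 0.39 (95% interval -0.24 to 1.01), Klf4 at 1.05 (-1.32 to 3.41) and Klf6 at 0.17 (-0.42 to 0.77). The intervals of Klf4, Klf13 (-1.95 to 2.48) and Klf15 (-1.16 to 1.75) take in differences of more than 1 on the log2 scale in either direction. So do those of Klf2, Klf3 and Klf10. Such differences were therefore not excluded with 5 and 4 libraries. All 10 values were above 0, but only 5 were without PM-OVA replicate 1, without Sham-OVA replicate 3 or with array weights. Without PM-OVA replicate 1, Klf4 was at -0.21, Klf3 at -0.30, Klf10 at -0.35, Klf13 at -0.63 and Klf15 at -0.08. Without Sham-OVA replicate 3, Klf6 was at -0.05, and Klf3, Klf10, Klf13 and Klf15 were again below 0. Without the 3 shallow libraries, which leaves PM-OVA replicates 1 and 2, 7 of 10 values were above 0. Klf4 was then at 3.12 ± 0.90, Klf13 at 1.61 ± 0.43 and Klf2 at -0.88 ± 0.20 (limma, adjusted p = 0.214 for each). DESeq2 put Klf4 at 3.16 ± 1.18 without an adjusted p, and edgeR put it at 3.31. No member was called in any of these fits, with Klf4 left out of the DESeq2 count.

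The OVA effect in PM offspring was also set against that in Sham offspring in an interaction test. Of the 10 members, 0 passed (limma, adjusted p = 1.00 for each), where 0% of genes were called, and before adjustment 0 had p under 0.05. DESeq2 called 0 members and 2 genes in all, and edgeR 0 of each. Klf9 had the smallest p, with a difference of 0.48 (95% interval -0.11 to 1.07), followed by Klf15 at 0.62 (-0.59 to 1.83) and Klf4 at 0.99 (-0.97 to 2.95). Without the 3 shallow libraries, a choice made after seeing the data, the Klf4 difference was 3.07 ± 0.77 (limma, adjusted p = 0.0323), with 4.29% of all genes called. That fit leaves only PM-OVA replicates 1 and 2. Without PM-OVA replicate 1 the Klf4 difference was -0.26 ± 0.60. With array weights, 2 members were called, Klf3 at -0.80 and Klf13 at -1.67 (limma, adjusted p = 0.0440 and 0.00511), with 27.5% of all genes called. The sign of the Klf4 difference thus changed with the PM-OVA libraries kept.

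**Figure D4:**
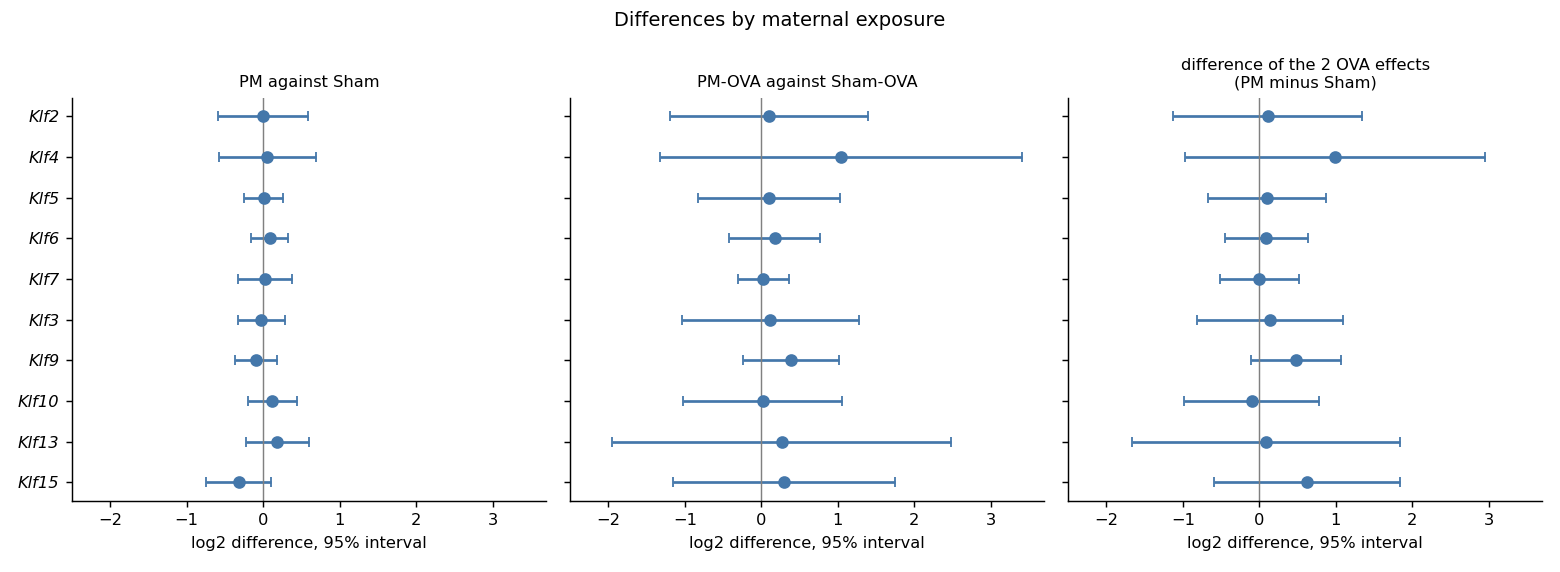
Log2 difference with its 95% interval on the horizontal axis for each member, in PM against Sham, in PM-OVA against Sham-OVA, and for the difference of the OVA effects (PM minus Sham offspring). All intervals include 0, and those of the challenged lungs are wider.

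How the members varied among themselves without the challenge was examined in the 14 unchallenged libraries, with the group mean removed. Of 45 pairs, 4 passed a permutation test of Pearson's r after adjustment over the 45, all of them with r above 0, and 3 passed with Spearman's rho. The median r of the pairs was 0.02. Klf2 and Klf6 had r = 0.866 and rho = 0.793 (adjusted permutation p = 0.00157 and 0.0177), and r = 0.740 without the 2 libraries farthest from the median of Klf2. Klf9 and Klf15 had r = 0.849 and rho = 0.855 (adjusted permutation p = 0.00157 and 0.00540), and r = 0.747 without the 2 farthest. Without Sham replicate 1 the values of r were 0.809 and 0.840, and without Sham replicate 6 and PM replicate 1 they were 0.837 and 0.887, and both pairs passed by r in each case. By rho, Klf9 and Klf15 passed in each case too, whereas Klf2 and Klf6 did not (adjusted permutation p = 0.0634 and 0.167). Klf7 and Klf9 passed with Spearman's rho (0.859, adjusted permutation p = 0.00540) but not with Pearson's r (0.673, adjusted permutation p = 0.0547). By r this pair passed with median-of-ratios scaling (0.715) and without PM replicate 5 (0.814). Without PM replicate 5, Klf2 and Klf9 passed with a negative r (-0.736, adjusted permutation p = 0.0477).

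Klf3 varied with Klf4 (r = 0.749, rho = 0.662) and with Klf7 (r = 0.747, rho = 0.631), each with an adjusted permutation p of 0.0274 for r. By rho neither passed (adjusted permutation p = 0.0808 and 0.0884). Both relations rested on PM replicate 5, which had the lowest Klf3, Klf4 and Klf7 of the 14 libraries, and r was 0.506 and 0.512 without it (adjusted permutation p = 0.185 and 0.182). Neither pair passed without Sham replicate 6 and PM replicate 1 (adjusted permutation p = 0.0541 for each), and Klf3 with Klf7 did not pass without Sham replicate 1 (adjusted permutation p = 0.0530). That library also had the lowest summed level of 10 endothelial markers of the PM group, 2303 RPM against 6722 to 8039 RPM in the other 6. The part of endothelial RNA in the relation was not tested. The pair with the lowest r was Klf6 and Klf15 at -0.692 (rho = -0.653, adjusted permutation p = 0.0547 and 0.0808), which did not pass.

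**Figure D5:**
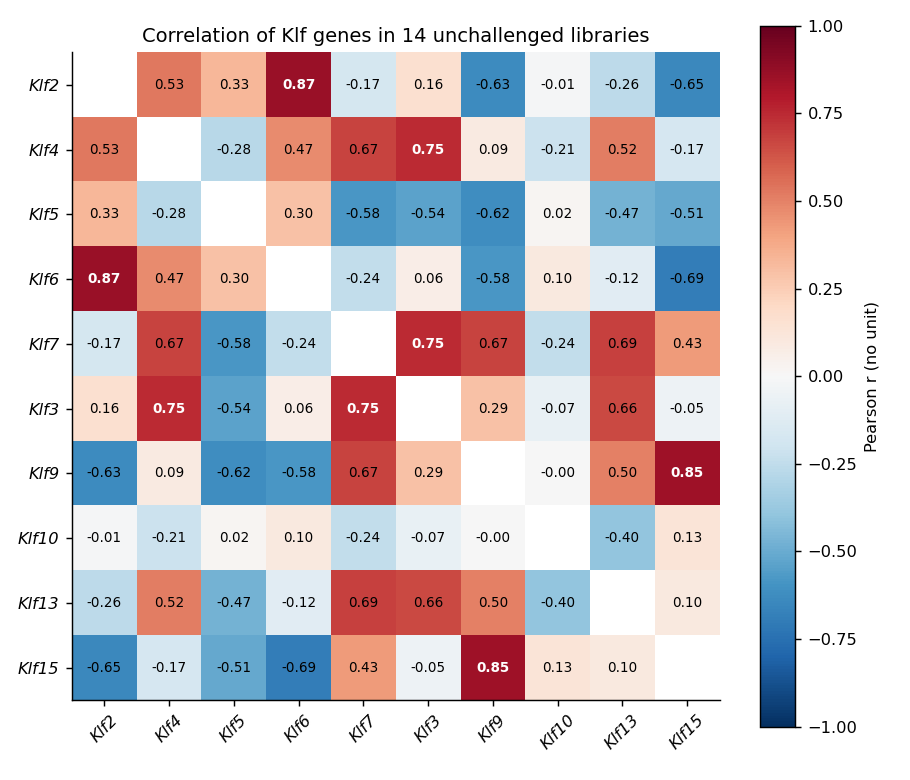
Pearson's r between the members over 14 unchallenged libraries, as deviations of log2(RPM + 0.5) from the group mean. Bold values passed the adjusted permutation test. Klf2 with Klf6 (0.87) and Klf9 with Klf15 (0.85) stand highest.

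The genes whose pattern over the same 14 libraries was most like Klf4, by Pearson's r of the deviations, were Foxf1 (0.929), Sema6d (0.917), Efnb2 (0.913), Hilpda (0.913) and Tbx3 (0.910). Of 16794 genes, 6 had an r above 0.9, and the 5 named were picked for the highest r. Their rho lay between 0.842 (Sema6d) and 0.877 (Efnb2). PM replicate 5, which had the lowest Klf4, was among these libraries, and r without it was not examined here. Foxf1 encodes a forkhead factor of lung mesenchyme and endothelium, Efnb2 the ligand ephrin B2 of arterial endothelium, and Tbx3 a T-box factor. The 5 genes were also described after OVA: their log2 fold changes were -1.64, -4.77, -2.59, -0.92 and -2.31 in Sham offspring and -1.06, -4.58, -2.31, -1.01 and -1.99 in PM offspring.

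Of the 7 Klf genes that are not members, 4 were tested, and Klf1, Klf14 and Klf17 were too low. Klf12, a repressor, was lower in both cohorts, at -3.26 ± 0.34 and -3.14 ± 0.43, from 6.85 to 17.3 RPM in Sham to 0 to 1.81 RPM in Sham-OVA. Klf8, another repressor that binds CtBP, was at -0.91 ± 0.23 and -0.91 ± 0.21 and passed in both, but was at 0.03 and 0.05 with the length and GC trend removed. Klf11, which binds Sin3a, was at -0.31 ± 0.14 and -0.38 ± 0.14, and passed only the test in PM offspring. Median-of-ratios scaling put it at 0.06 and -0.02. Klf16 was at 0.37 ± 0.14 and 0.33 ± 0.15, and passed only the test in Sham offspring. That call was lost without any 1 of Sham replicates 1, 2, 3 and 7 and Sham-OVA replicate 1 (0.32 to 0.36). In PM offspring Klf16 passed without PM-OVA replicate 1 (0.40) or 2 (0.44), and at 0.69 with median-of-ratios scaling, 0.67 with quantile normalisation, 0.82 with DESeq2 and 0.79 with edgeR. Of the Sp factors, the closest relatives of the KLFs, 4 of 6 tested passed as lower and 0 as higher in each cohort, with Sp1 at -2.84 ± 0.37 in Sham and -2.67 ± 0.43 in PM offspring.

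Genes of the pathways around the members were listed with earlier results known and are given by their counts (limma, adjusted p under 0.05), beside the 47.5% lower and 20.6% higher of all genes in Sham offspring and the 45.2% and 20.1% in PM offspring. Nothing is called particular to a list from these counts. In the flow pathway upstream of Klf2 and Klf4, 6 of 11 genes passed as lower and 3 as higher in Sham offspring, and 6 and 2 in PM offspring. The kinase genes of this cascade differed in direction, with Map3k3, the first kinase, at -4.02 ± 0.39 and Map2k5, the next one, at 1.24 ± 0.16 in Sham offspring. In PM offspring the values were -4.06 ± 0.77 and 1.21 ± 0.23. Of the endothelial genes that KLF2 or KLF4 are known to induce, 5 of 6 passed as lower in Sham and 4 of 6 in PM offspring, and 0 as higher. Thbd, which encodes the anticoagulant receptor thrombomodulin, had the largest fall of these, at -2.38 ± 0.33 and -2.41 ± 0.41. Of the genes they are known to repress, 2 of 4 tested passed as lower and 1 as higher in each cohort, with Ccl2, a monocyte chemokine, at 3.28 ± 0.32 and 2.05 ± 0.27. These endothelial genes stood beside 10 endothelial markers of which 3 passed as higher and 4 as lower in each cohort, with a median of 0.09. Their summed level was 3710 to 8158 RPM in Sham against 4519 to 5558 RPM in Sham-OVA, and 2303 to 8039 RPM in PM against 4499.7 to 5950.5 RPM in PM-OVA, with no marker at 0 throughout a group. The part of the number of endothelial cells in these values was not tested.

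Klf2 is known to govern homing genes of T cells, of which 2 of 5 passed as lower and 1 as higher in Sham offspring and 3 and 1 in PM offspring. S1pr1, the receptor that lets lymphocytes leave tissue and is also an endothelial gene, was at -1.83 ± 0.29 and -1.80 ± 0.32, and the integrin gene Itgb7 at 0.86 ± 0.20 and 0.67 ± 0.17. Of 6 T cell markers, 3 passed as higher and 1 as lower in Sham offspring and 2 and 1 in PM offspring. Of the glucocorticoid-induced genes, a class to which Klf9 and Klf15 belong, 7 of 9 passed as lower and 1 as higher in Sham and 6 and 1 in PM offspring. The transcription factor gene Zbtb16 was at -4.89 ± 0.60 and -3.86 ± 0.86, and the metallothionein gene Mt2 at 2.89 ± 0.33 and 2.74 ± 0.51. The metabolic targets of KLF15 were split, with 2 of 5 lower and 1 higher in Sham and 0 and 1 in PM offspring. Tat, which breaks down tyrosine, was at -1.97 ± 0.46 in Sham and -0.86 ± 0.45 in PM offspring, where it did not pass, and Bcat2, which breaks down branched-chain amino acids, was at 1.35 ± 0.12 and 1.18 ± 0.17.

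Clock genes, of which 10 of 14 passed as lower and 0 as higher in Sham offspring and 5 and 2 in PM offspring, included Nr1d2, a repressor of the clock, at -2.56 ± 0.52 and -1.15 ± 0.34. In PM offspring Nr1d2 was at -0.42 without the 3 shallow libraries and at -0.18 after the length and GC correction, and neither passed. Of the immediate early genes, 5 of 17 passed as lower and 2 as higher in Sham offspring and 6 and 3 in PM offspring, with Fos at -1.65 ± 0.30 and -1.79 ± 0.52 and Junb at 1.40 ± 0.22 and 1.28 ± 0.30. Without the 3 shallow libraries neither passed in PM offspring, with Fos at -0.60 and Junb at 0.86. Of the cofactors of the KLFs and the genes of their turnover, 7 of 11 passed as lower and 3 as higher in each cohort. Among them the acetyltransferase gene Kat2b was at -3.38 ± 0.24 and -2.83 ± 0.34 and the deacetylase gene Hdac3 at 1.00 ± 0.16 and 0.98 ± 0.16. In none of the 11 lists did a gene pass in the maternal comparisons or in the interaction (limma, adjusted p). At an unadjusted p under 0.05, 9 of 14 clock genes did so for the interaction, with a smallest adjusted p of 0.643 (limma), where 854 of all 16795 genes did.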

How the data were processed

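RNA of 23 lungs was sequenced with a stranded polyA kit. Per the labels the runs were converted with bcl2fastq and the build is mm10. The study's methods name Trimmomatic, Bowtie2, SAMtools, SeqMonk and DESeq2. The table deposited by the authors is named for RPKM, but its values are RPM, reads scaled to a common library total with no division by length: every value in it was a whole multiple of 1 read (100% within 0.02). Whole read counts were recovered from the deposited RPM. The design had assumed RPKM, and the test is the same. All per-sample columns had a sample (0 without one).

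Levels were tested as log2(RPM + 0.5) with limma 3.58.1 (trend, R 4.3.3) on 16795 of 35322 genes with at least 0.5 RPM in 4 libraries, with Benjamini-Hochberg adjustment over all of them. Fold changes on this scale understate the change of low genes. Groups were taken from the labels. Sham-OVA was compared with Sham, PM-OVA with PM, PM with Sham and PM-OVA with Sham-OVA, and the interaction was fitted over all groups. Errors are SE for fold changes and SD for levels. Correlations used 100000 permutations (two-sided, scipy 1.17.1). Counting floors are 3 reads and cover counting error only. The limma tests were checked on counts simulated from the Sham means, with the same dispersion in all libraries and no shift with transcript length. The wider spread and the length shift of the challenged libraries were not simulated, and the correlation test was not checked in this way.

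The members and lists were chosen with earlier results of these data known. Named genes were the members, the other Klf genes, the largest rise and fall among the called genes of each list in Sham offspring, the 5 genes with the highest r to Klf4, and the 3 members with the smallest p in each maternal comparison and the interaction. Genes of marker lists are given by counts only. A gene that the rule names is not reported here. Alternatives were other pseudocounts, filters and scalings, array weights, robust estimation, a replicate block, thinned reads, DESeq2 1.42.0, edgeR 4.0.16 and each replicate left out. Removal of the length and GC trend and the fits without the 3 shallow libraries or without PM replicate 5 were added after seeing the data.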

Additional observations from a re-analysis of the deposited data

Results flagged for a closer look

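Of 40 sets of values (10 members in 4 groups), 4 had 1 library far from the others by Dixon's test, which chance gives in about 1 of 20. Klf2 in Sham-OVA was highest in replicate 3, at 1121.6 RPM against 604 RPM in the next library. Klf4 in PM-OVA was highest in replicate 1, at 35.1 RPM against 2.40 RPM in the next library. Klf7 in PM was lowest in replicate 5, at 91.1 RPM against 159.8 RPM in the next library. Klf13 in PM was lowest in the same replicate, at 153 RPM against 228 RPM in the next library.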

How the results depend on the processing

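Of 2163 values under alternatives, 2074 kept their direction and their side of the threshold, 51 lost the threshold, 15 gained it, 5 counts moved by more than 1.5 times and 18 values changed sign. The causes were not tested. At the stricter threshold, applied to limma, the members called were 2 in Sham and 0 in PM offspring in place of 10 each. In the interaction, 2 members were called with array weights and 1 without the 3 shallow libraries in place of 0, and 2 correlated pairs in place of 4 passed without Sham replicate 6 and PM replicate 1. With each replicate left out, the members called stayed at 10 in Sham and between 8 and 10 in PM offspring, and at 0 elsewhere. In these fits 65% to 72.3% of all genes were called in Sham and 57.1% to 71.9% in PM offspring, and at most 0.0357% elsewhere. Leaving out PM-OVA replicate 3 (1.11 and 0.59) or 4 (1.09 and 0.61) lost the calls of Klf2 and Klf5 in PM offspring.

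Klf11 changed sign in Sham offspring with median-of-ratios (0.0599), quantile (0.0368), DESeq2 (0.0537), edgeR (0.14) and the length and GC trend removed (0.32), and in PM offspring with DESeq2 (0.0217), edgeR (0.00844) and that trend removed (0.23). With the trend removed, Klf7 was 0.26 in each cohort and Klf8 0.0272 in Sham and 0.0522 in PM offspring. In PM-OVA against Sham-OVA, Klf6 was -0.10 with array weights, and the range over left-out replicates was -0.0489 to 0.28 for Klf6 and -0.21 to 1.84 for Klf4. In the interaction, Klf15 was -0.49 and Klf4 -0.19 with array weights, and Klf4 ranged from -0.26 to 1.79 over left-out replicates.

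The replicate numbers are those of the sample titles, which differ from the library names in the OVA groups. Deviations of same-numbered libraries correlated at 0.595, 0.220, 0.617 and -0.311 in the challenged lungs and at -0.248 to 0.115 in the other comparisons. Since not every pair was over 0.1, the numbers were not taken to pair the libraries. With the replicate block, 10 members were called in Sham and 7 in PM offspring, where Klf2 (1.14), Klf5 (0.81) and Klf10 (-1.01) were lost, and 0 in the other comparisons. The block called 59.7% of all genes in Sham and 47.5% in PM offspring. Klf4 rested on 0 to 31 reads in 8 of the 9 challenged lungs, which limits its value there.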
